A study of Rattus norvegicus with 6 samples.

Results

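The HIF-1 response genes are 10 genes chosen by name: Hif1a, which encodes the oxygen-regulated subunit of hypoxia-inducible factor 1 (HIF-1), and 9 genes known to be switched on by it, namely Vegfa, Bnip3, Ndrg1, Egln1, Egln3, Ankrd37, Kdm3a, Adm and P4ha1. All 10 were found among the 23139 genes of the count tables, and all 10 had enough reads to be tested. The 6 libraries came from primary microglia of postnatal day 1 Wistar rats. The cells were grown in mixed cultures of the cortex in serum-containing medium, shaken off and sorted with CD11b/c microbeads. In both groups the cells received 100 ng/mL lipopolysaccharide (LPS, an endotoxin of Gram-negative bacteria that microglia sense). The control group, LPS + DMSO, had the solvent in addition (n = 3), and the other, LPS + Siponimod, had 50 µM siponimod, a modulator of sphingosine 1-phosphate receptors (n = 3). The methods call the libraries biological replicates without stating which animals or cultures they came from, and the labels do not give the time from stimulation to lysis. Cells without LPS were not analysed here, so that every value below compares siponimod with its solvent in LPS-treated cells. Oxygen was not varied in this comparison.

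HIF-1 is a pair of proteins, HIF-1α and ARNT. At normal oxygen, prolyl hydroxylases (encoded by the Egln genes) mark HIF-1α for destruction by a ubiquitin ligase that contains VHL, elongins B and C, CUL2 and RBX1, so that control lies mostly in the protein and not in the messenger RNA. When oxygen is short, or in myeloid cells activated by LPS, the protein accumulates, binds DNA at short hypoxia response elements and raises the transcription of genes for blood vessel growth, glycolysis, mitochondrial removal and collagen maturation. Several of its targets, Vegfa among them, also answer to other transcription factors, and HIF-1α itself was not measured here.

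The genes differ in whether the core letters of such an element lie close to the start of transcription. In the RefSeq promoter table of the rat assembly GRCr8, which is not the assembly used for mapping, 9 of the 10 genes were present, all except Ndrg1. The 250 bases before each start site were searched on both strands for ACGTG and for GCGTG. Of the 9 genes, 6 held at least 1 match, beside 39.6% of all 27457 genes of the table searched in the same way. Where CACGTG occurs, ACGTG is read on both strands and was counted once per strand. The windows of 4 genes are shown, in the direction of transcription from 5′ to 3′ and with matches in capitals: the pair of genes that passed the test below (Vegfa and P4ha1) and the pair with the most matches (Bnip3 and Ankrd37).
Vegfa, chr9:22452604-22452853, plus strand: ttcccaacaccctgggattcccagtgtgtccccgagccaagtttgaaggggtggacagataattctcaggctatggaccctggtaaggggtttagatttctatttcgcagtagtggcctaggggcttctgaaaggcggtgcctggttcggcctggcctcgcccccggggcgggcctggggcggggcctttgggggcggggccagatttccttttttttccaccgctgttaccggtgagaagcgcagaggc
P4ha1, chr20:27844796-27845045, plus strand: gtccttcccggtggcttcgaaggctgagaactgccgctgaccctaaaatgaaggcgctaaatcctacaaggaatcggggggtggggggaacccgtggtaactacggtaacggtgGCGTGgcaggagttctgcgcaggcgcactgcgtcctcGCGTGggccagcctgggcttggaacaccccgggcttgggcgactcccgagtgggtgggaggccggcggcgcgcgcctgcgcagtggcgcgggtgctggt
Bnip3, chr1:203154963-203155212, minus strand: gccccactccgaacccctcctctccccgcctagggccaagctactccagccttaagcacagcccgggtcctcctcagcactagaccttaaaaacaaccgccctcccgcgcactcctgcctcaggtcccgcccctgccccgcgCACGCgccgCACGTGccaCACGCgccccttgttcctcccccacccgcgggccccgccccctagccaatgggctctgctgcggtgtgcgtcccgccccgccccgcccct
Ankrd37, chr16:53001257-53001506, plus strand: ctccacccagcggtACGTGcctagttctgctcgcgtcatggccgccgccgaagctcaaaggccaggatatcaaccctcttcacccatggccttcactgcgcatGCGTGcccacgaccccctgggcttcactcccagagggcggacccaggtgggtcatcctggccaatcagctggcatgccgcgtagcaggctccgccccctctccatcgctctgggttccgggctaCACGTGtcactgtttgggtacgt
The Vegfa window held neither word, nor did the window of its other listed start site. The hypoxia response element known for Vegfa lies further upstream than these bases. P4ha1 held GCGTG at 136 and 99 bases before its start site. Bnip3 and Ankrd37 had 4 matches each, Hif1a 3, and Egln1 and Kdm3a 1 each, while the windows of Adm and Egln3 had none. A match of these letters is a description of the sequence and does not show that a factor binds there.

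Sequencing depth lay between 38080379 counts (LPS + DMSO replicate 3) and 46643859 counts (LPS + Siponimod replicate 1). Values below are normalised read counts, that is CPM (a gene’s reads scaled to a common library total) adjusted by TMM, edgeR's correction for library composition. Before turning to the genes, the libraries were checked against markers of the cell types that such a culture could hold. All 12 microglia markers were detected, 11 of them with more than 3 counts in every library, the exception being Cx3cr1. Their summed level was 9701, 7886 and 5174 CPM in LPS + DMSO replicates 1, 2 and 3 and 4144, 5121 and 3028 CPM in LPS + Siponimod replicates 1, 2 and 3. Aif1, Itgam and Cx3cr1 were lower with siponimod at the thresholds used below. Csf1r, the highest marker in 3 of the 6 libraries, stood at 3051, 2340 and 932 CPM against 636, 1309 and 491 CPM, with overlapping groups.

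The libraries numbered 3 stood apart in both conditions, since the summed markers of oligodendrocyte lineage cells and neurons were highest there. The 8 oligodendrocyte lineage markers summed to 5.34, 5.37 and 36.0 CPM with LPS + DMSO and to 11.4, 10.3 and 22.6 CPM with LPS + Siponimod, Mbp (called higher with siponimod) being the most abundant except in LPS + DMSO replicate 3, where Olig1 was, and Mog having at most 1 count in any library. The 7 neuron markers, led by Tubb3 except in LPS + DMSO replicate 3 (Gap43), summed to 1.78, 1.06 and 24.9 CPM and to 4.39, 5.85 and 20.1 CPM. The 7 astrocyte markers, led by Slc1a3, summed to 42.5, 21.1 and 24.3 CPM against 27.5, 26.9 and 59.1 CPM. Gfap had 88 counts in LPS + DMSO replicate 3 and at most 2 elsewhere. Of 5 endothelial markers in the tables, Emcn had no count in any library, and the sum, led by Cdh5 except in LPS + DMSO replicate 2 (Pecam1), was 157, 203 and 82.2 CPM against 37.5, 80.4 and 26.4 CPM. Rgs5 was at 0 among the 8 markers of fibroblasts and mural cells. Dcn, called higher with siponimod, led the list in LPS + Siponimod replicates 1 and 3 and Col1a1 in the other libraries. Among the other tested markers of this list, Col1a1, Col3a1 and Pdgfrb had a lower mean with siponimod and Col1a2 a higher one. None of these was called. The 8 markers summed to 6.05, 4.78 and 3.98 CPM against 11.9, 4.64 and 8.68 CPM. The part of these cells in the results below was not tested, but counts of called genes are also given without both libraries numbered 3. In a bulk sample, fewer cells of a type and less RNA per cell cannot be told apart.

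**Figure D1:**
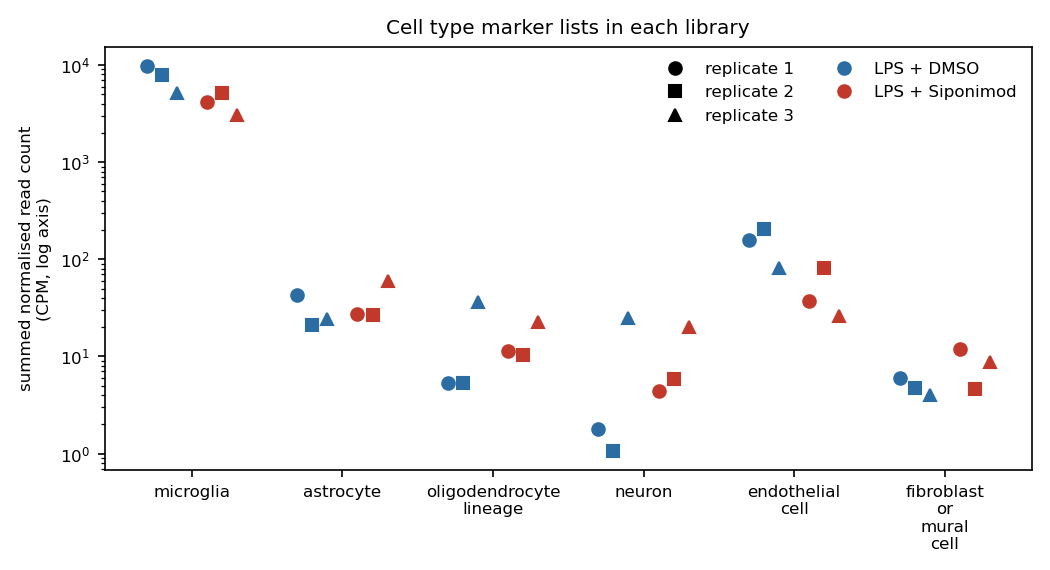
Summed normalised read count (CPM, log axis) of 6 lists of cell type markers in each of the 6 libraries, with colour for the group and symbol for the replicate number. Microglia markers were far above the other lists in every library, and both libraries numbered 3 (triangles) stood above the others of their group for oligodendrocyte lineage and neuron markers.

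The question put to the HIF-1 response genes was whether siponimod moved them in the same direction in LPS-treated microglia. They did not move in a common direction. Vegfa rose 18.3-fold and P4ha1 fell by 1.11 on the log2 scale, whereas the other 8 genes, Hif1a included, did not pass the test. Genes were called changed (differentially expressed genes, DEGs) at a Benjamini-Hochberg adjusted p of at most 0.05 in edgeR's quasi-likelihood test and a fold change of at least 1.5. By this rule 2 of the 10 were DEGs, beside 25.3% of the 11977 genes tested across the transcriptome, made up of 13.6% higher and 11.7% lower with siponimod. The 3 libraries of each group did not overlap for 6 of the 10, with 4 higher and 2 lower, beside 49.3% of all genes tested (25.3% higher and 24% lower). The median log2 fold change of the 10 was 0.58 and that of all genes tested -0.02. The former was 0.95 without LPS + DMSO replicate 1 and 0.35 without LPS + DMSO replicate 2, and the median difference within pairs was 0.06, 0.77 and 0.56 in pairs 1, 2 and 3. For 1 gene, an exact permutation test over 6 libraries has a smallest p of 0.1, so that each adjusted p also draws on the variance that edgeR shares between genes. Without both libraries numbered 3, the number of DEGs was again 2, Vegfa and P4ha1, beside 19.3% of the 12032 genes tested in that fit. The replicate numbers behaved as pairs (correlations are given with the processing), and with the number as a block there were 5 DEGs, the additional ones being Bnip3, Ndrg1 and Kdm3a, beside 34% of all genes tested. DESeq2 and the likelihood ratio test of edgeR each called 6 of the 10, with Ndrg1, Egln3, Kdm3a and Adm in addition, beside 32.5% and 29.8% of all genes tested.

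**Figure D2:**
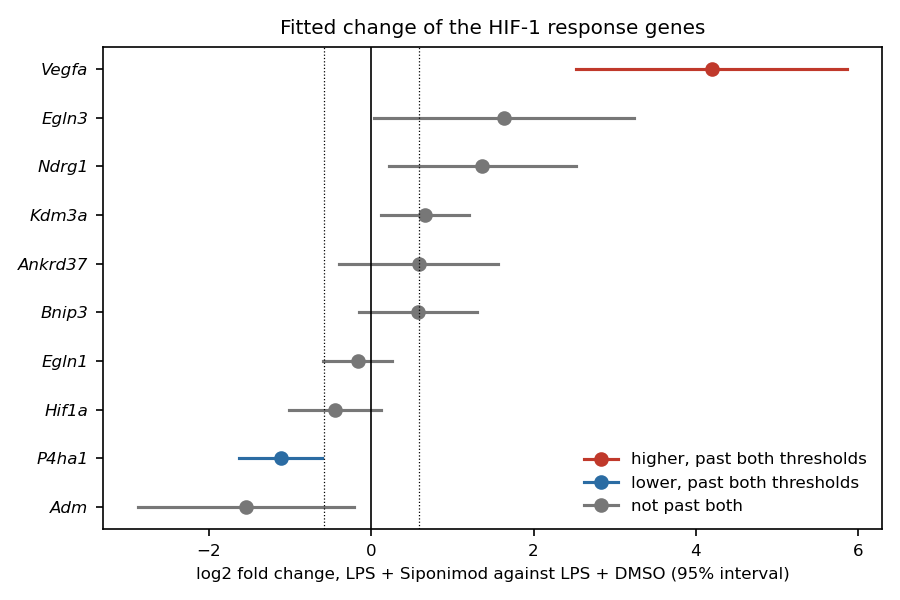
Fitted log2 fold change of each HIF-1 response gene, LPS + Siponimod against LPS + DMSO, with its 95% interval (bars) from edgeR's quasi-likelihood fit (n = 3 libraries per group), the dotted lines marking a fold change of 1.5. Vegfa lies at 4.19 and P4ha1 at -1.11, past both thresholds, and the grey genes between and beside them did not pass.

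Among the secreted factors, Vegfa, the vascular endothelial growth factor A that drives vessel growth and permeability, had the largest change of the 10 genes. It stood at 35.7, 8.44 and 20.3 CPM in LPS + DMSO replicates 1, 2 and 3 and at 409, 183 and 588 CPM in LPS + Siponimod replicates 1, 2 and 3. The lowest library with siponimod was above the highest without it, although the libraries within each group differed several-fold. The means were 21.5 ± 13.7 and 393 ± 203 CPM (SD, n = 3 each), and the log2 fold change was 4.19 (standard error 0.69, 95% interval 2.53 to 5.86, edgeR adjusted p = 0.0112). Vegfa passed in all 6 fits that left out 1 library, with a log2 fold change between 3.79 and 4.80 and a largest adjusted p of 0.0486 by the same test. Without both libraries numbered 3 it was 3.75 (edgeR adjusted p = 0.0485).

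Adm, which encodes the vasodilator peptide adrenomedullin and is usually induced together with Vegfa in hypoxia, lay on the other side. Its level was 100.5, 36.4 and 21.8 CPM with LPS + DMSO and 20.4, 17.9 and 16.2 CPM with LPS + Siponimod. All 3 siponimod libraries were below all 3 controls, but LPS + DMSO replicate 3 was nearly as low as the siponimod libraries. The log2 fold change of -1.54 (standard error 0.55, 95% interval -2.87 to -0.21) did not pass (edgeR adjusted p = 0.0795). It rested much on the controls, being -0.67 without LPS + DMSO replicate 1 (adjusted p = 0.136) and -1.91 without LPS + DMSO replicate 3, where it passed (edgeR adjusted p = 0.0247).

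Hif1a itself showed no rise. Its level was 1071, 615 and 973 CPM with LPS + DMSO and 638, 643 and 662 CPM with LPS + Siponimod. The siponimod libraries were nearly equal (coefficient of variation 1.98%) and lay inside the range of the controls (27.1%). The log2 fold change of -0.45 had a 95% interval from -1.02 to 0.11 (edgeR adjusted p = 0.186), an interval that holds no rise of 1.5-fold. The value depended on single controls, being -0.27 without LPS + DMSO replicate 1 and -0.64 without LPS + DMSO replicate 2, and passed in neither case (smaller edgeR adjusted p = 0.0859).

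The oxygen sensors Egln1 and Egln3 encode prolyl hydroxylases that mark HIF-1α for destruction, and both are themselves HIF-1 targets, forming a feedback loop. Egln1 was at 92.1, 64.5 and 61.8 CPM with LPS + DMSO and at 65.3, 65.8 and 63.6 CPM with LPS + Siponimod. Apart from LPS + DMSO replicate 1, the libraries hardly differed, and the log2 fold change was -0.17 (95% interval -0.59 to 0.26, edgeR adjusted p = 0.499). Egln3, the more strongly hypoxia-induced of these sensors, was at 83.3, 19.5 and 18.8 CPM with LPS + DMSO and at 111, 85.5 and 181 CPM with LPS + Siponimod. All siponimod libraries were above all controls, LPS + DMSO replicate 1 being just below the lowest of them. Its log2 fold change of 1.64 (standard error 0.66, 95% interval 0.03 to 3.24) did not pass (edgeR adjusted p = 0.109). Egln3 also depended on that control library, since without it the log2 fold change was 2.74 and passed (edgeR adjusted p = 0.0269). Without both libraries numbered 3 it was 0.94 (edgeR adjusted p = 0.346).

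**Figure D3:**
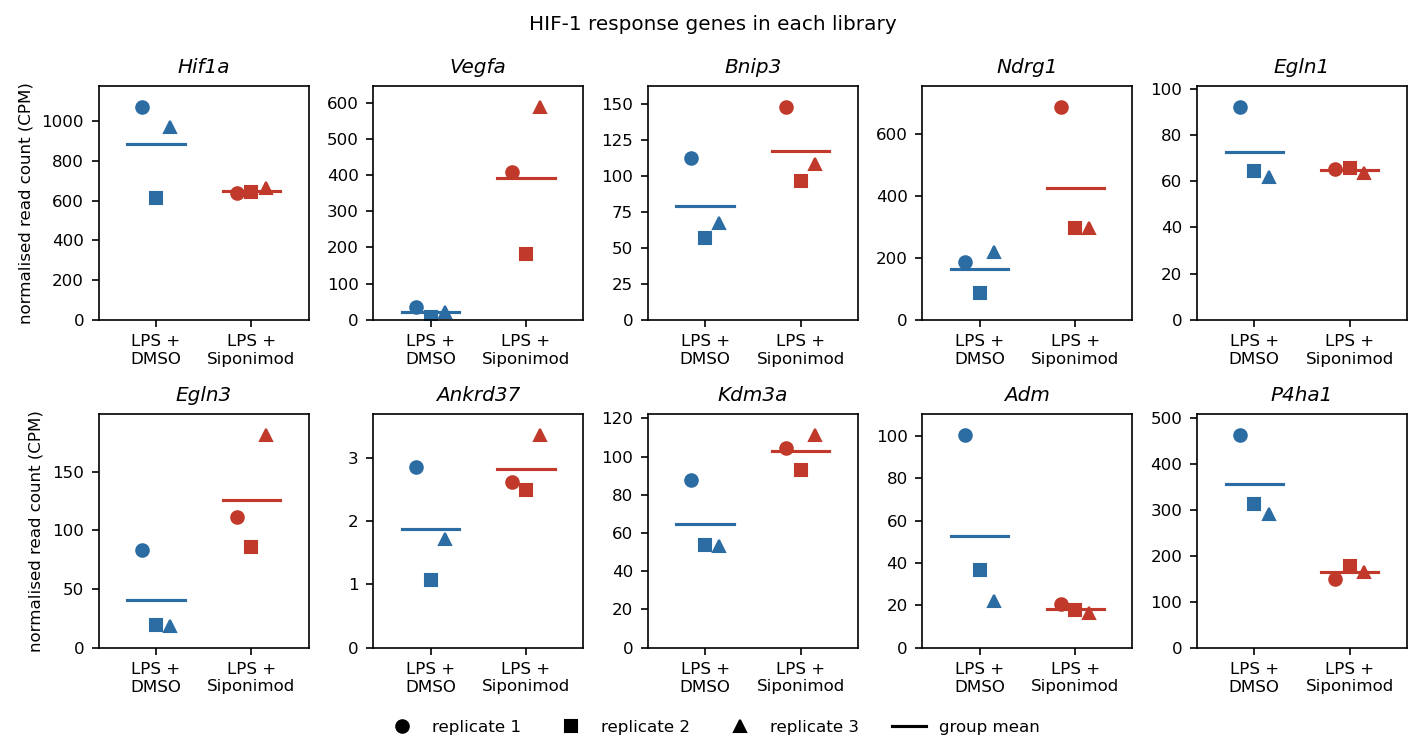
Normalised read count (CPM, linear axes that start at 0 and differ between genes) of the 10 HIF-1 response genes in each library, with symbols for the replicate number and lines for the group means. Vegfa, Ndrg1, Egln3 and Kdm3a were higher and Adm and P4ha1 lower in every LPS + Siponimod library than in every LPS + DMSO library, and LPS + DMSO replicate 1 (circles) was the highest control for all genes except Ndrg1.

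The remaining genes act inside the cell. P4ha1 encodes the catalytic subunit of collagen prolyl 4-hydroxylase, which makes collagen helices stable. It was at 464, 313 and 292 CPM with LPS + DMSO and at 151, 178 and 166 CPM with LPS + Siponimod. The groups were far apart, and the means of 356 ± 93.8 and 165 ± 13.5 CPM (SD, n = 3 each) gave a log2 fold change of -1.11 (standard error 0.21, edgeR adjusted p = 0.0158). The fall was kept as a call without both libraries numbered 3 (-1.24, edgeR adjusted p = 0.0423). It missed the threshold without LPS + DMSO replicate 2 (edgeR adjusted p = 0.0591), without LPS + Siponimod replicate 1 (0.0793) and without LPS + Siponimod replicate 3 (0.0624).

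Ndrg1, an N-myc downstream regulated gene widely used as a hypoxia marker, was at 188, 87.5 and 220 CPM with LPS + DMSO and at 687, 296 and 298 CPM with LPS + Siponimod. All siponimod libraries were higher than all controls, most of all replicate 1. The log2 fold change was 1.37 (standard error 0.48, edgeR adjusted p = 0.0753), and with the replicate block it was 1.36 and passed (edgeR adjusted p = 0.0314). Without LPS + Siponimod replicate 1 it was 0.84 (edgeR adjusted p = 0.231).

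Kdm3a, which encodes a histone demethylase that depends on oxygen, was at 87.8, 53.6 and 53.4 CPM with LPS + DMSO and at 104, 92.8 and 111 CPM with LPS + Siponimod. The groups did not overlap, but LPS + DMSO replicate 1 lay close to the siponimod libraries. The log2 fold change was 0.66 (standard error 0.23, edgeR adjusted p = 0.0709). It passed with the replicate block (0.70, edgeR adjusted p = 0.0392) and without LPS + DMSO replicate 1 (0.96, edgeR adjusted p = 0.0275).

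Bnip3 encodes a mitochondrial outer membrane protein that promotes the removal of mitochondria. Its level was 113, 56.9 and 67.0 CPM with LPS + DMSO and 147, 96.3 and 108 CPM with LPS + Siponimod. The groups overlapped by LPS + DMSO replicate 1. The log2 fold change of 0.57 (standard error 0.30) did not pass (edgeR adjusted p = 0.19), whereas within pairs the differences were 0.39, 0.76 and 0.69, and the fit with the replicate block called it (0.61, edgeR adjusted p = 0.0218). With 1 library left out, Bnip3 ranged from 0.37 (without LPS + Siponimod replicate 1) to 0.94 (without LPS + DMSO replicate 1) and was not called. Ankrd37, an ankyrin repeat gene with few reads, was at 2.86, 1.06 and 1.72 CPM with LPS + DMSO and at 2.63, 2.49 and 3.37 CPM with LPS + Siponimod. The groups overlapped by LPS + DMSO replicate 1, and the log2 fold change of 0.59 had a 95% interval from -0.39 to 1.56 (edgeR adjusted p = 0.304). It was 0.31 without LPS + DMSO replicate 2 and 1.04 without LPS + DMSO replicate 1, again not called.

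Within the same-numbered pairs, 7 of the 10 genes had the same direction in all 3 pairs (5 higher, 2 lower), beside 70.8% of all genes tested. Vegfa differed by 3.52, 4.43 and 4.85 on the log2 scale in pairs 1, 2 and 3, P4ha1 by -1.62, -0.82 and -0.82, and Adm by -2.30, -1.02 and -0.43. Egln3 ranged from 0.41 in pair 1 to 3.27 in pair 3. Hif1a, Egln1 and Ankrd37 changed sign between pairs.

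**Figure D4:**
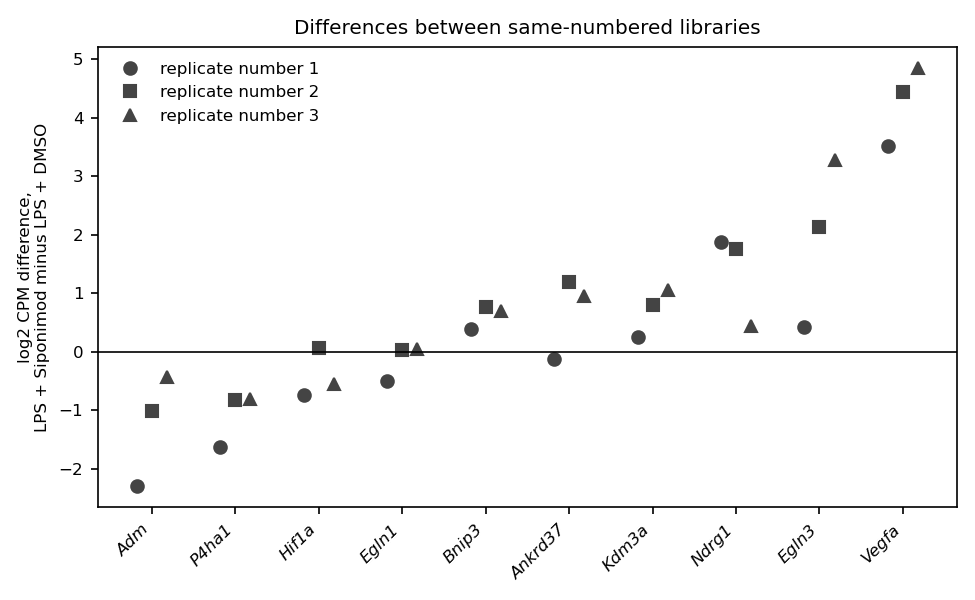
Difference in log2 CPM between the LPS + Siponimod and the LPS + DMSO library of the same replicate number, for each of the 10 HIF-1 response genes. All 3 points lie above 0 for Bnip3, Kdm3a, Ndrg1, Egln3 and Vegfa and below 0 for Adm and P4ha1, and pair 1 (circles) has the lowest value for all genes except Ndrg1.

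Most of the 10 genes shared the control with the highest level. LPS + DMSO replicate 1 was the highest control for 9 of the 10 genes, the exception being Ndrg1, beside 34.8% of all genes tested. The same held for 12 of the 17 glycolytic and 26 of the 38 other non-glycolytic HIF targets tested. Replicate 1 was the lowest control for none of the 10 genes, none of the 17 and 2 of the 38, beside 34.1% of all genes. The lowest control was replicate 2 for 5 of the 10 genes and replicate 3 for the other 5. The controls also differed more among themselves than the siponimod libraries did. The coefficient of variation was smaller with LPS + Siponimod for 9 of the 10 genes (all except Ndrg1), beside 60.6% of the genes with a count in both groups. It was also smaller for 14 of the 17 glycolytic and 29 of the 38 other non-glycolytic HIF targets, so that this was not particular to the 10 genes. For Egln1 it was 23.0% against 1.75%, for P4ha1 26.3% against 8.21% and for Adm 79.1% against 11.5%. These are descriptions of 3 libraries per group, and no test was made.

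Beyond the 10 genes, the other parts of the pathway were read from lists of well-known members, described by their counts. Of the 5 genes for HIF subunits and partners, Arnt, the constant partner of HIF-1α, was at 72.3, 76.5 and 70.0 CPM against 89.6, 91.6 and 82.2 CPM. The groups did not overlap, and the log2 fold change was 0.27 (standard error 0.11, edgeR adjusted p = 0.103). Epas1, which encodes HIF-2α, and Arnt2 were seen mainly in the libraries numbered 3. Epas1 had 5, 4 and 91 counts against 16, 15 and 65, and Arnt2 73, 59 and 431 against 81, 82 and 373, with log2 fold changes of -0.25 each (edgeR adjusted p = 0.901 and 0.868) whose sign turned without both libraries numbered 3 (1.49 and 0.04). Hif3a, a subunit often described as an inhibitor of the others, was the only gene called in this list (20% of it, beside 11.7% of all genes tested called lower), at 15, 14 and 23 counts against 0, 4 and 3 (log2 fold change -3.04, standard error 0.86, edgeR adjusted p = 0.0436). It did not pass in any of the 6 fits without 1 library (edgeR adjusted p up to 0.152) nor without both libraries numbered 3.

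Of 13 tested genes for oxygen sensing and HIF turnover, 2 rose and 1 fell, which is 15.4% and 7.69%, near the 13.6% and 11.7% of all genes tested. Siah2, a ubiquitin ligase known to target prolyl hydroxylases, rose by 1.46 on the log2 scale, from 6.23 ± 0.895 to 17.1 ± 3.45 CPM (standard error 0.21, edgeR adjusted p = 0.00896), and passed in all 6 fits without 1 library. Its relative Siah1 rose by 0.67 (edgeR adjusted p = 0.0185). Eloc, which encodes elongin C of the VHL complex, fell by 0.62 (edgeR adjusted p = 0.0219). Without 1 library the largest edgeR adjusted p was 0.0762 for Siah1 and 0.0931 for Eloc. Neither passed without both libraries numbered 3. In that fit 2 genes of this list rose, Siah2 among them, and none fell, beside 19.3% of all genes called in either direction. The other sensors were not called: Egln2 had a log2 fold change of -0.46 (95% interval -0.997 to 0.081, and -0.22 without LPS + DMSO replicate 3) and Hif1an, the asparaginyl hydroxylase that blocks HIF-1α activity, -0.04 (95% interval -0.59 to 0.51). P4htm had too few reads. The coactivator gene Ep300 is split over the entries Ep300_1 and Ep300_2, which were not counted in the list and were not called (0.28 and 0.51, edgeR adjusted p = 0.261 and 0.0255), the latter for its fold change under 1.5.

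The VEGF ligands and receptors had the largest share of called genes among the lists. Of 7 tested ligand and receptor genes, 4 rose and 1 fell (57.1% and 14.3%, beside 13.6% and 11.7% of all genes tested), with a median log2 fold change of 1.23. Since Vegfa belongs to this list and was known to rise, its count is no independent evidence. Vegfb, a related ligand with a role in lipid uptake, was at 11.98, 8.72 and 5.81 CPM with LPS + DMSO and at 78.7, 34.0 and 74.4 CPM with LPS + Siponimod (log2 fold change 2.82, standard error 0.42, edgeR adjusted p = 0.00924). Flt1, a VEGF receptor found on macrophages as well as endothelium, went the other way, from 11.04, 11.99 and 11.52 CPM to 2.22, 4.03 and 2.02 CPM. Its groups were well separated, with a log2 fold change of -2.06 (standard error 0.30, edgeR adjusted p = 0.00913), and it passed in all 6 fits without 1 library. The coreceptors Nrp1 (15.4 ± 5.22 against 37.9 ± 15.1 CPM, log2 fold change 1.29, edgeR adjusted p = 0.0458) and Nrp2 (436 ± 166 against 1021 ± 79.4 CPM, 1.23, 0.0288) rose. Without 1 library the largest edgeR adjusted p was 0.0526 for Vegfb (without LPS + DMSO replicate 2), 0.158 for Nrp1 and 0.103 for Nrp2, and without both libraries numbered 3 3 rose and 1 fell (beside 19.3% of all genes called in either direction), the log2 fold change of Nrp1 being 0.82 (edgeR adjusted p = 0.164). Kdr, the main VEGF receptor of endothelial cells, had no count in any library, and Flt4 had between 2 and 20 counts (log2 fold change 0.47, edgeR adjusted p = 0.74), its value running from 0.0067 without LPS + DMSO replicate 2 to 2.45 without LPS + DMSO replicate 1.

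The adrenomedullin system had 4 tested genes, Adm included, all with a lower level under LPS + Siponimod and none called, beside 11.7% of all genes tested called lower. Calcrl, the receptor gene, had a log2 fold change of -0.88 (edgeR adjusted p = 0.198), and was called only without LPS + DMSO replicate 3 (-1.24, edgeR adjusted p = 0.0312), while it was -0.40 without LPS + DMSO replicate 1 (edgeR adjusted p = 0.55). Its partner genes Ramp1 and Ramp3 had -2.67 and -2.15 (edgeR adjusted p = 0.187 and 0.111; -3.28 for Ramp3 without LPS + Siponimod replicate 2), with at most 155 and 41 counts in any library, and both passed with the replicate block (-2.90 and -2.39, edgeR adjusted p = 0.0143 and 0.0368). Without both libraries numbered 3, 1 gene of this list, Ramp1, was called lower (-2.63, edgeR adjusted p = 0.0371), beside 19.3% of all genes called in either direction. Ramp2 was not analysed here.

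In the list of other non-glycolytic HIF targets, 5 of 38 tested genes rose and 4 fell, which is 13.2% and 10.5%, beside 13.6% and 11.7% of all genes tested. With the replicate block 11 rose and 5 fell (beside 17.7% and 16.4%). The median log2 fold change of the list was 0.14, with 0.34 without LPS + DMSO replicate 1 and 0.00079 without LPS + DMSO replicate 3. Bhlhe40, a transcriptional repressor, rose most, from 6.42, 1.64 and 2.80 CPM to 146, 69.5 and 103 CPM (log2 fold change 4.87, standard error 0.60, edgeR adjusted p = 0.00703). Lonp1, a mitochondrial protease, rose from 94.5 ± 16.7 to 403 ± 80.8 CPM (log2 fold change 2.09, standard error 0.22, edgeR adjusted p = 0.00582). Rab20, a small GTPase of endosomes (2.19, edgeR adjusted p = 0.0126), and Ier3, an early response gene (3.23, 0.0256), rose as well. Angptl4, an inhibitor of lipoprotein lipase, had the deepest fall, from 76.2 ± 26.6 to 1.29 ± 1.26 CPM (log2 fold change -5.88, edgeR adjusted p = 0.00733). Tfrc, the transferrin receptor, fell from 1121, 536 and 410 CPM to 201, 159 and 200 CPM (-1.88, standard error 0.40, edgeR adjusted p = 0.0204). Bhlhe40, Lonp1 and Angptl4 passed in all 6 fits without 1 library, while the largest adjusted p was 0.0549 for Rab20, 0.0858 for Ier3 and 0.0859 for Tfrc, each without LPS + Siponimod replicate 1. Without both libraries numbered 3, 6 rose and 3 fell, beside 19.3% of all genes called in either direction in that fit. Epo had no count in any library.

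Of the 17 glycolytic HIF targets tested, 2 rose and 4 fell (11.8% and 23.5%, beside 13.6% and 11.7% of all genes tested), with a median log2 fold change of -0.13. This median was 0.05 without LPS + DMSO replicate 1 and -0.34 without LPS + DMSO replicate 2. Hk1, the widely expressed hexokinase gene, rose by 1.34, from 151 ± 22.4 to 382 ± 54.9 CPM (standard error 0.18, edgeR adjusted p = 0.00779), and Pfkp, a phosphofructokinase gene, rose by 0.87 (edgeR adjusted p = 0.011). The hypoxia-induced hexokinase gene Hk2 was at 147, 127 and 104 CPM against 281, 154 and 194 CPM (0.73, edgeR adjusted p = 0.0759, and 0.46 without LPS + Siponimod replicate 1) and passed with the replicate block (0.71, edgeR adjusted p = 0.0359), where 4 of the list rose and 4 fell (beside 17.7% and 16.4% of all genes). Pfkfb4, a regulator of glycolytic flux, fell by 1.71 on the log2 scale, the isomerase gene Gpi by 1.14 and the aldolase gene Aldoc by 1.12 (edgeR adjusted p = 0.0219, 0.0257 and 0.0401), and Ldha was called lower too. Hk1 passed in all 6 fits without 1 library. The largest edgeR adjusted p in these fits was 0.0515 for Pfkp, 0.0993 for Pfkfb4, 0.107 for Gpi and 0.147 for Aldoc. When both libraries numbered 3 were left out, 2 of the list rose and 1 fell, beside 19.3% of all genes called in either direction. Aldoa is split over the entries Aldoa_1 and Aldoa_2, which were not counted in the list and were not called (log2 fold change 0.23 and 0.39, edgeR adjusted p = 0.418 and 0.476). Pgk1 was not analysed here.

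Close relatives of the 10 genes gave mixed values. Of 6 tested collagen prolyl and lysyl hydroxylase genes, P4ha1 was the only one called (16.7%, beside 11.7% of all genes tested called lower), and P4hb, the other subunit of its enzyme, had a log2 fold change of -0.02 (95% interval -0.46 to 0.42). With the replicate block 2 genes of this list rose and P4ha1 fell (beside 17.7% and 16.4% of all genes). When both libraries numbered 3 were left out, P4ha1 was again the only call, beside 19.3% of all genes called in either direction. Among the NDRG genes, Ndrg3 fell by 1.01, from 25.7 ± 2.43 to 12.8 ± 2.12 CPM (standard error 0.17, edgeR adjusted p = 0.012), and Ndrg4 rose from 1.13 ± 1.01 to 9.44 ± 3.02 CPM (3.06, standard error 0.70, edgeR adjusted p = 0.0254). With 1 library left out, the largest edgeR adjusted p was 0.0613 for Ndrg3 and 0.0884 for Ndrg4. Ndrg3 and Ndrg4 were again called without both libraries numbered 3 (edgeR adjusted p = 0.0334 and 0.0302). Whether the fold changes of relatives differ from each other was not tested.

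**Figure D5:**
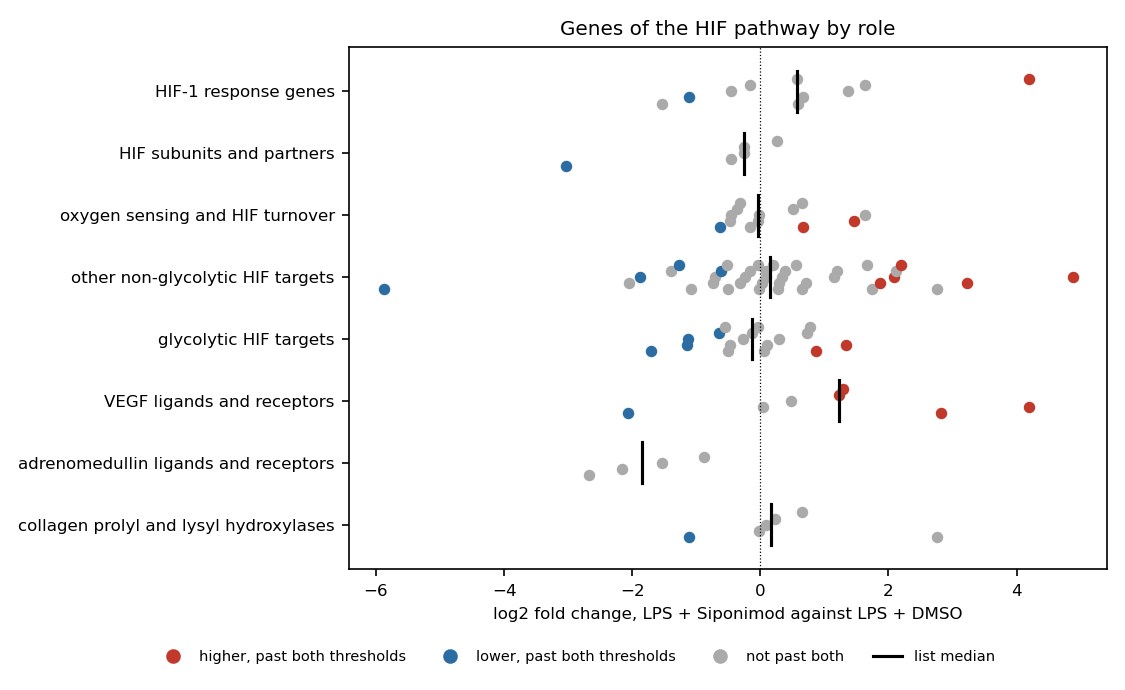
Fitted log2 fold change, LPS + Siponimod against LPS + DMSO, of the tested genes of the HIF pathway grouped by role, each point being a gene (some belong to more than 1 list) and each bar the median of its list. Called genes lie on both sides of 0 in several lists, and the medians are 0.58 for the HIF-1 response genes, 0.14 for the other non-glycolytic targets, -0.13 for the glycolytic targets and 1.23 for the VEGF list.

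Across the 6 libraries, the genes whose log2 CPM was most like that of Vegfa were Rora, Ilk, Rnf39, Tgif1 and Smox, with a Pearson correlation between 0.996 and 0.997 among 11976 other genes. All 5 were higher with LPS + Siponimod, with log2 fold changes from 1.41 (Ilk) to 3.52 (Rora), and the correlation follows for the most part the difference between the groups. After centring on the group means, the most similar genes were Acadl, Sgms2, Kcnh1, Septin3 and a gene without a symbol (0.993 to 0.996), none of which was called. Both rankings rest on the same 6 libraries and are descriptions.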

How the data were processed

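The 6 libraries of polyA-selected mRNA were sequenced single-end by the authors. Per the labels and the study's methods, reads were demultiplexed with bcl2fastq (version 2.20.0.422), trimmed and mapped to the rat genome mRatBN7.2 in the CLC Genomics Workbench, and the authors deposited total read counts per gene, without normalization. Strand, introns and reads that match several genes are handled in a way not given in the sources used here, so that overlapping or near-identical genes are uncertain. A row without a gene name, holding 0 counts, was left out.

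Tests used edgeR (version 4.0.16) under R (version 4.3.3). filterByExpr (minimum count 10, minimum total 15) kept 11977 of 23139 genes. TMM factors lay between 0.939 and 1.056. glmQLFit and glmQLFTest were fitted on all genes with the group as the only term, with Benjamini-Hochberg adjustment over all of them. The standard error is the size of the log2 fold change divided by the square root of F, and intervals use the moderated degrees of freedom. Pair differences use log2 CPM (prior count 2). The depth of 38080379 to 46643859 counts makes counting error small except for genes with few counts.

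Same-numbered libraries correlated after centring on the group means (0.42, 0.545 and 0.611 across genes, against -0.534 to 0.0856 for other combinations), so that the numbers were taken to pair them, on this evidence alone. Alternatives were RLE scaling, DESeq2 (version 1.42.0), limma-voom (limma version 3.58.1), the likelihood ratio test, other filters (at least 1 count, or a mean of 1 CPM), the replicate block and each library left out. Leaving out both libraries numbered 3 was added after the data were seen. The procedure was tested on simulated data.

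The genes, lists and tests were chosen with earlier results of these data known. Named genes are the 10 members, up to 6 called genes per list by p, subunits, sensors and receptors, and of glycolysis the 3 smallest p per direction. P4hb, P4htm, Ldha and the entries of Aldoa and Ep300 were named after their values were seen. Ramp2 and Pgk1 belong to the lists but were not analysed here, and were named without values. The genome coordinates are those of RefSeq's GRCr8 promoter table only.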

Additional observations from a re-analysis of the deposited data

How the results depend on the processing

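Vegfa kept its direction and its call under all 14 alternatives (log2 fold change 3.75 to 4.80), and P4ha1 its direction under all 14 and its call under 11. The number of HIF-1 response genes called was 2 under RLE, limma-voom and both filters. It was 6 (4 higher, 2 lower) under DESeq2 and under edgeR's likelihood ratio test, which added Ndrg1, Egln3, Kdm3a and Adm and called 32.5% and 29.8% of all genes. With the replicate block it was 5 (4 higher), beside 34% of all genes. Without 1 library it lay between 1 and 4 (1 to 3 higher, 0 to 2 lower), while the number of all genes called lay between 651 (without LPS + DMSO replicate 2) and 3713 (without LPS + DMSO replicate 3), as against 3036.

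For the other lists, DESeq2, the likelihood ratio test and the replicate block called 15, 14 and 16 of the other non-glycolytic targets (9 in the report), 2, 2 and 3 of the collagen hydroxylases (1), 1, 1 and 2 of the adrenomedullin genes (0) and 4, 4 and 5 of the list of relatives (2). In the same order they called 32.5%, 29.8% and 34% of all genes tested, against 25.3% in the report. Of the HIF subunits, Hif3a lost its call with the filter of 1 count, was removed untested by the filter of a mean of 1 CPM, and was not called without both libraries numbered 3, so that 0 subunits were called in each case. The same omission gave calls for 1 adrenomedullin gene and 3 glycolytic targets, beside 19.3% of all genes tested in that fit. Without 1 library the numbers ranged from 0 to 2 for adrenomedullin genes, collagen hydroxylases and relatives, 1 to 6 for glycolytic targets, 3 to 11 for other targets, 1 to 4 for oxygen sensing and 2 to 5 for VEGF genes, and no HIF subunit was called.

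The sign turned for Epas1 under limma-voom (0.72), with the replicate block (0.50) and without both libraries numbered 3 (1.49), for Hif1an (0.00176, 0.00147 and 0.18 in the same order) and for Arnt2 without both libraries numbered 3 (0.0361). Without 1 library, these genes and Egln1 ranged from -1.39 to 2.64 (Epas1), -0.20 to 0.24 (Hif1an), -1.49 to 1.28 (Arnt2) and -0.27 to 0.0553 (Egln1). None of these was called in any fit. The causes were not tested. Among the named genes the replicate block changed the calls of Bnip3, Ndrg1, Kdm3a, Hk2, Ramp1 and Ramp3 and of no other. Counting error is largest for genes with few counts, such as Hif3a.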
